A study of Rattus norvegicus with 6 samples.

Results

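The genes described here encode plasma membrane and vesicle carriers for amino acids and for amino acid-derived transmitters, measured in 2 fractions of the digested inner medulla of the rat kidney. They were chosen by a rule on gene symbols, with earlier results of these data known. It took the Slc1, Slc3, Slc6, Slc7, Slc36, Slc38 and Slc43 families, without the osmolyte carriers Slc6a6 and Slc6a12 and without Slc38a2. The rule found 51 of the 14217 genes on the Affymetrix Rat 230 2.0 array, with 69 probe sets. Where a gene had several, the one with the highest mean log2 value over the 6 arrays was read, and 40 of the 51 had 1 probe set only. Slc7a6os met the rule by its letters but is not a carrier: it is named for lying on the strand opposite Slc7a6.

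Male Sprague-Dawley rats, 7 in all, were given 1 mg furosemide, a loop diuretic, intraperitoneally and decapitated 30 min later, and the inner medulla was digested with collagenase B and hyaluronidase for 75 min at 37 °C. Low-speed centrifugation gave the IMCD fraction, in which cells of the inner medullary collecting duct are enriched, and cells recovered from the supernatant made up the nonIMCD fraction. Both fractions carry the same diuretic and digestion, and no untreated or undigested tissue was analysed here. Each fraction was measured on 3 arrays. IMCD replicate 1 is labelled 6 weeks old and the other 5 arrays 10 weeks. The isolation was done 3 times, giving pairs of fractions, but neither the pairing of the arrays nor any pooling of the rats is described, so p-values measure the spread between arrays.

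Amino acid carriers work as uniporters, exchangers or cotransporters, and the membrane on which each one sits decides whether a tubule cell reabsorbs an amino acid or feeds itself from the blood. Most light chains of the Slc7 family reach the membrane only when bound to a heavy chain. The partner is Slc3a2 on the basolateral side or Slc3a1 on the apical side, whereas the cationic carriers such as Slc7a1 work alone. Slc6 carriers draw on sodium and chloride gradients and include the transmitter carriers of neurons. In the kidney the proximal tubule reabsorbs most filtered amino acids, and cells of the inner medulla live in a hypertonic interstitium in which neutral amino acids also serve as osmolytes.

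Of the 51 genes, 4 were higher and 8 lower in IMCD, and 39 did not pass (limma, adjusted p under 0.05 over all probe sets). The higher genes were Slc6a17, Slc7a1, Slc7a8 and Slc6a14. The lower genes were Slc6a18, Slc7a7, Slc1a1, Slc38a4, Slc43a2, Slc38a10, Slc1a5 and Slc3a2. Among all genes 10.0% were higher and 15.7% lower, 25.8% in either direction, so the shares of 7.84%, 15.7% and 23.5% among the 51 lay near the background. The median log2 difference, IMCD minus nonIMCD, was -0.18 over the 51 genes and -0.09 over all genes, and the median size was 0.42 against 0.40. Over all probe sets 22.0% were called, 8.58% higher and 13.4% lower. Called differences of at least 2-fold numbered 3 higher and 5 lower carriers, 15.7% of the 51, against 4.6% higher, 9.85% lower and 14.5% in either direction among all genes. Arrays of the fractions did not overlap for 18 of the 51 genes, or 35.3%, against 48.7% of all genes. The number of higher carriers was 2 without IMCD replicate 1, IMCD replicate 2 or nonIMCD replicate 3. The shares of the 51 genes called were thus like those of all genes, and single members differed from -4.0 to 1.73.

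Signal set a limit for many members. The 3 tryptophan control probe sets, which match a bacterial gene, reached at most 78.4 on any array, and this value is used here as the upper edge of the background. On all 6 arrays 28 of the 51 genes lay above it and 10 lay under it. Of the 28 genes above it, 3 were higher, 6 lower and 19 did not pass. That is 32.1% called, against 29.7% of all genes above the same line. In array data a difference in signal between bulk fractions cannot tell fewer cells of a type from less RNA per cell.

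Markers of the collecting duct and of other cell types were read in both fractions. Of 11 measured principal cell markers 10 were higher in IMCD (median 1.67), while 8 of 8 endothelial and 9 of 10 leukocyte markers were lower (medians -1.96 and -5.32). Collecting duct RNA was not absent from nonIMCD. The water channel Aqp2, the only principal cell marker that did not pass (0.29, adjusted p = 0.261), had a mean of 43300 there against 52570 in IMCD. For the 10 called markers the IMCD mean was from 1.78-fold (Fxyd4, 42900 against 24110) to 5.93-fold (Elf5, 7041 against 1187) that of nonIMCD. Control transcripts moved with the fractions as well: the mean log2 ratio of 3' to 5' signal over Actb, Gapdh and hexokinase ran from 0.67 to 0.72 in IMCD and from 1.22 to 1.5 in nonIMCD, and its part in the differences was not tested. The median intensity per array ran from 269 to 272.1 in IMCD and from 329 to 340.0 in nonIMCD. Over all probe sets the deposited scale gave a median difference of -0.10, against 0.19 under median centring of the arrays and 0.06 after quantile normalization.

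**Figure D1:**
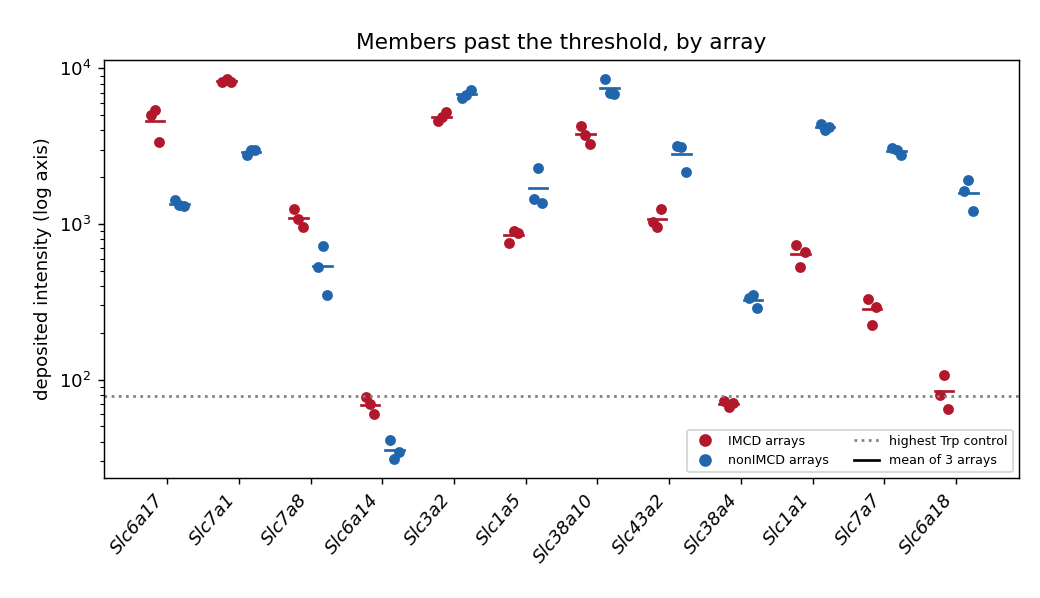
Deposited intensity (log axis) of the 12 carriers past the threshold on each of the 3 IMCD arrays (red) and 3 nonIMCD arrays (blue), ordered by difference, with the mean of each fraction as a short line and the highest tryptophan control, 78.4, as a dotted line. Red and blue points do not overlap for any of the 12, but these were picked by a test on the same arrays. The lack of overlap is thus not separate evidence for the calls. It also held for 48.7% of all genes and for 35.3% of the genes chosen by the symbol rule. Slc6a14 lies under the dotted line on all 6 arrays.

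The upstream sequence of 3 carriers is shown because they carry the main contrast among the Slc7 genes, Slc7a1 and Slc7a8 being higher and Slc7a7 lower in IMCD. RefSeq (GRCr8) gives a window for 39 of the 51 genes, and each sequence is the 250 bases before the annotated gene start, 5′ to 3′ on the gene's strand. Capitals mark the motifs searched on both strands: TGATGNAA (the core of the amino acid response element), TGACGTCA (cAMP response element), GGGCGG (GC box), CCAAT and TATAAA. No matches overlapped in these windows.
Slc7a1, chr12:11664238-11664487, plus strand: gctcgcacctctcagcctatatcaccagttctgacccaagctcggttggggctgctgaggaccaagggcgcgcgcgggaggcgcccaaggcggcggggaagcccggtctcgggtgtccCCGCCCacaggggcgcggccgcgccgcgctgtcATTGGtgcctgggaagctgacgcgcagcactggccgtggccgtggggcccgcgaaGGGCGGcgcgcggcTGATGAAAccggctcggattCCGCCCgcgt
Slc7a8, chr15:32212716-32212965, minus strand: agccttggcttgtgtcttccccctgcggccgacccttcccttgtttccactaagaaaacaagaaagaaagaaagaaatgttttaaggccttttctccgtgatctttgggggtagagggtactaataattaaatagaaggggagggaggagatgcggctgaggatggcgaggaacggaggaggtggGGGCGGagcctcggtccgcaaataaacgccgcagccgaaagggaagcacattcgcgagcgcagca
Slc7a7, chr15:31835684-31835933, minus strand: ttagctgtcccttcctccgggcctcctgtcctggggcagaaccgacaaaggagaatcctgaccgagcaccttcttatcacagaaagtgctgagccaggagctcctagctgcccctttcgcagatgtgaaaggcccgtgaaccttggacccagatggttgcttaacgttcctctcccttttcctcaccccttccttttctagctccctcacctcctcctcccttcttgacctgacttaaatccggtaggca
The Slc7a1 window, 73.2% G and C, held 3 GC boxes, 1 CCAAT on the reverse strand and, from 30 to 23 bases before the start, the match TGATGAAA to the amino acid response core. That core was in 3.4% of all 33469 windows and in those of 3 of the 39 genes, Slc7a1, Slc1a4 and Slc38a1. The Slc7a8 window (53.6% G and C) held 1 GC box, a motif found in 30.5% of all windows. In the Slc7a7 window (55.2% G and C) none of the letters searched occurred. The starts of Slc7a7 and Slc7a8 lie 377 kb apart on the same strand of chromosome 15, so these light chains with opposite differences are encoded near each other. A match of letters is a description and was not linked to the signals by any test.

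Among the cationic amino acid carriers, Slc7a1 was higher in IMCD and the rest of the group did not pass. Slc7a1 (NCBI Gene 25648) is the broadly expressed uptake route for arginine and lysine. Its intensities were 8128, 8562 and 8164 on the IMCD arrays and 2789, 2976 and 2988 on the nonIMCD arrays. Every IMCD array was far above every nonIMCD array, and the arrays of a fraction lay close together. The means were 8285 ± 241 and 2918 ± 112 (SD, n = 3), a 2.84-fold excess and a log2 difference of 1.501 ± 0.11 (SE, adjusted p = 0.000818). The dimmer Slc7a1 probe sets gave 1.27 ± 0.13 (adjusted p = 0.00209) and 1.80 ± 0.35 (adjusted p = 0.018), so all 3 were called in the same direction. Slc7a3 had -0.67 (adjusted p = 0.253) and the orphan Slc7a4 had -0.55 (adjusted p = 0.141). Signal of Slc7a3 was near the tryptophan controls, above them on 1 of 3 IMCD arrays and all 3 nonIMCD arrays, so its size is uncertain. Slc7a2 and Slc7a14 had fewer than 2 arrays of either fraction above the tryptophan controls and are given no difference, with ranges of 8.57 to 87.6 and 2.93 to 11.1 over the 6 arrays.

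The heavy chains are what most of the light chains depend on. Slc3a2, the basolateral heavy chain (NCBI Gene 50567), had intensities of 4570, 4843 and 5246 on the IMCD arrays and 6417, 6766 and 7297 on the nonIMCD arrays. The fractions did not overlap, but the difference was small: -0.48 ± 0.13 (SE, adjusted p = 0.045). This call was lost on leaving out any single array (-0.53 to -0.43, adjusted p = 0.077 to 0.138) and under median centring (-0.19, adjusted p = 0.306). Over all alternatives the adjusted p ran from 0.00228 to 0.306. Slc3a1, the apical heavy chain of the cystine carrier, had 188.9, 368.6 and 466.8 on the IMCD arrays and 333.7, 377.1 and 492.3 on the nonIMCD arrays. These ranges overlapped, with the lowest value on IMCD replicate 1, and the difference of -0.29 ± 0.35 did not pass (adjusted p = 0.605). The apical light chain Slc7a9, which pairs with Slc3a1 in cystine reabsorption, lay under the tryptophan controls throughout, at 32.8 to 68.4.

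Among the light chains, Slc7a7 and Slc7a8 differed in opposite directions, and the rest did not pass. Slc7a7 (NCBI Gene 83509), which exports cationic amino acids in exchange for neutral ones and is known from proximal tubule, intestine and macrophages, had 329.1, 225.8 and 292.3 on the IMCD arrays. On the nonIMCD arrays it had 3073, 3001 and 2757. The means of 282 ± 52.4 and 2943 ± 166 (SD, n = 3) lay 10.4-fold apart, and the log2 difference was -3.32 ± 0.17 (SE, adjusted p = 0.000333). The call held under all 13 alternatives (-3.44 to -3.04). Moving with it, the summed intensity of 10 leukocyte markers ran from 1882 to 2548 in IMCD and from 73420 to 94350 in nonIMCD, with 9 of 10 lower and with Aif1 and Itgam under the tryptophan controls on every IMCD array. This was not particular to leukocytes. Summed endothelial markers ran from 13710 to 17520 in IMCD and from 66040 to 73110 in nonIMCD, and interstitial ones from 5180 to 5671 and from 34380 to 38100. Thin limb, thick ascending limb, proximal tubule, erythroid and urothelial sums were also lower in IMCD, and principal, intercalated and nerve cell sums were higher. Some sums rested mainly on 1 gene. Without Mbp the nerve cell sums overlapped, at 462.1 to 657.8 in IMCD and 452 to 537.4 in nonIMCD. Lrp2 made up most of the proximal tubule gap. Only Trim29 passed among 6 urothelial markers (mean 218.1 in IMCD and 1539 in nonIMCD). Of 6 thin limb markers 3 were lower and 3 did not pass, among them Cldn4 (0.48) and Slc14a2 (0.33). The part of any of these cells in the Slc7a7 difference was not tested.

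Slc7a8 (NCBI Gene 84551), a basolateral exchanger of neutral amino acids, ran the other way. It had 1248, 1079 and 958 on the IMCD arrays and 531.9, 719.7 and 349.3 on the nonIMCD arrays, so the fractions did not overlap and the nonIMCD arrays varied most. The means were 1095 ± 146 and 533.6 ± 185 (SD, n = 3), and the difference was 1.07 ± 0.28 (SE, adjusted p = 0.045). That call was near the threshold. It failed on leaving out IMCD replicate 1 (0.97, adjusted p = 0.131), 2 (1.07, 0.109) or 3 (1.16, 0.0848) and on leaving out nonIMCD replicate 1 (1.09, 0.108) or 3 (0.80, 0.0644). Without nonIMCD replicate 2 it stood at 1.30 (adjusted p = 0.0316), and over all alternatives the adjusted p ran from 0.0056 to 0.131.

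Ratios between carriers within an array, taken here as differences of log2(intensity + 16), show the light chains side by side. Centring each array leaves them unchanged, while quantile normalization or another pseudocount does not. The log2 ratio of Slc7a8 over Slc7a7 signal was 1.87, 2.18 and 1.66 on the IMCD arrays and -2.50, -2.04 and -2.92 on the nonIMCD arrays, a shift of 4.39. Against the heavy chain Slc3a2, Slc7a7 moved from a mean of -4.05 ± 0.30 in IMCD to -1.21 ± 0.17 in nonIMCD (SD, n = 3). Slc7a8 over Slc3a2 moved the other way, from -2.15 ± 0.29 to -3.69 ± 0.57. These pairs were picked after their values were seen and carry no test. Signals of different probe sets are not comparable as amounts of RNA, and only the shift of a ratio between fractions can be read.

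The other light chains gave no call. Slc7a5, the large neutral amino acid exchanger of proliferating cells, had a difference of 0.10 (adjusted p = 0.85), Slc7a6, close kin of Slc7a7, had -0.082 (adjusted p = 0.778), and the cystine-glutamate exchanger Slc7a11 had -0.11 (adjusted p = 0.712). Slc7a13, an acidic amino acid and cystine carrier, had 1269, 930.7 and 1103 on the IMCD arrays and 684.8, 792.8 and 999.1 on the nonIMCD arrays. The ranges overlapped and the difference of 0.41 ± 0.20 did not pass (adjusted p = 0.202), but it was called under median centring (0.70, adjusted p = 0.0463, with adjusted p = 0.0463 to 0.42 over all alternatives). Slc7a10 and Slc7a12 ranged from 4.54 to 142.2 and from 15.7 to 97.2 and are given no difference. Slc7a6os, the gene opposite Slc7a6, had -0.34 (adjusted p = 0.163).

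**Figure D2:**
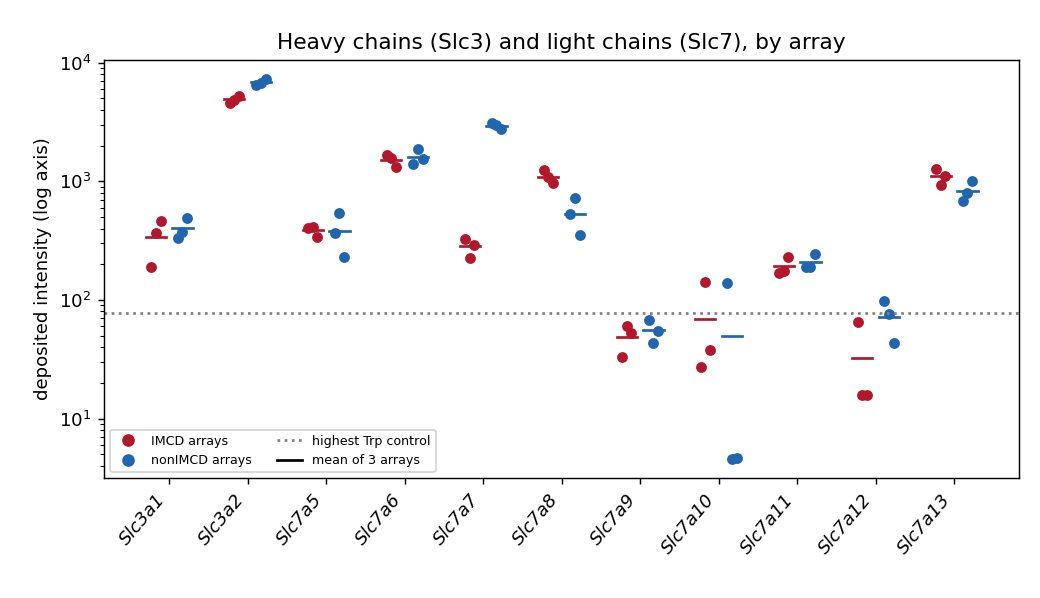
Deposited intensity (log axis) of the 2 heavy chains and 9 light chains on each IMCD array (red) and nonIMCD array (blue), with fraction means as short lines and the highest tryptophan control, 78.4, as a dotted line. Slc7a7 is higher on the nonIMCD arrays and Slc7a8 on the IMCD arrays, while Slc3a2 differs by -0.48 on the log2 scale and Slc7a9 lies under the dotted line on all 6 arrays.

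The acidic amino acid carriers were led by Slc1a1, the neuronal and epithelial glutamate and aspartate carrier. The brighter probe set of Slc1a1 (NCBI Gene 25550) had 731, 528.5 and 664.4 on the IMCD arrays and 4363, 4012 and 4205 on the nonIMCD arrays. Every nonIMCD array was far above every IMCD array. The difference was -2.69 ± 0.16 (SE, adjusted p = 0.000432), 6.54-fold between the means, and the other Slc1a1 probe set gave -2.33 ± 0.17 (adjusted p = 0.000787). The glial glutamate carrier Slc1a3 had 239.6, 229.7 and 200.6 on the IMCD arrays and 206, 176.3 and 151.2 on the nonIMCD arrays, which overlapped (0.31 ± 0.16, adjusted p = 0.225). Median centring called it (0.60, adjusted p = 0.0464, with adjusted p = 0.0464 to 0.455 over all alternatives). Its probe sets disagreed: a second, of nearly the same mean log2 value, was called at 1.09 ± 0.20 (adjusted p = 0.0155), and the dimmest had -0.25 (adjusted p = 0.618). The glial Slc1a2 and the cerebellar Slc1a6 lay under the tryptophan controls on all arrays, at 4.63 to 58.9 and 5.25 to 38.3.

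Of the neutral amino acid exchangers in the Slc1 family, Slc1a5, the glutamine exchanger (NCBI Gene 292657), was lower in IMCD. It had 754.1, 900.3 and 876.9 on the IMCD arrays and 1458, 2304 and 1375 on the nonIMCD arrays. The fractions did not overlap, and nonIMCD replicate 2 stood above the others. The difference was -0.97 ± 0.23 (SE, adjusted p = 0.0326). Leaving out an array ended the call for IMCD replicate 1 (-0.89, adjusted p = 0.103), 2 (-1.02, 0.0764) or 3 (-1.0, 0.0811) and for nonIMCD replicate 1 (-1.07, 0.0651), as did median centring (-0.68, 0.0819) and quantile normalization (-0.85, 0.0522). Over all alternatives the adjusted p ran from 0.0025 to 0.103. Its relative Slc1a4, for alanine, serine and cysteine, did not pass, with means of 409 ± 27.6 for IMCD and 508 ± 86.0 for nonIMCD (SD, n = 3) (-0.29, adjusted p = 0.26).

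The Slc6 carriers outside the transmitter group held both ends of the range. Slc6a18, an apical carrier of neutral amino acids in the straight proximal tubule (NCBI Gene 29323), had 79.8, 107.5 and 64.3 on the IMCD arrays and 1620, 1930 and 1208 on the nonIMCD arrays. Its IMCD signal was at the edge of the background, with 2 of 3 arrays above the tryptophan controls. The difference was -4.0 ± 0.24 (SE, adjusted p = 0.000483), 18.9-fold between the means, and it held under all 13 alternatives (-4.23 to -3.47). Of 9 measured proximal tubule markers 1 was lower, the endocytic receptor Lrp2 (-3.34 ± 0.19, adjusted p = 0.000425). The summed intensity of the list ran from 663.5 to 746.1 in IMCD and from 3301 to 4311 in nonIMCD, and Lrp2 made up most of that gap. Without Lrp2 the sum ran from 327.1 to 411.1 in IMCD and from 474.4 to 540.1 in nonIMCD, and 0 of the 8 remaining markers passed in limma (1 at an unadjusted p under 0.05), 2 with a difference above 0 and 6 below. Of these 8, Slc5a2 and Fbp1 lay under the tryptophan controls on all 6 arrays, and Slc34a1 had a mean of 97.3 in IMCD and 70.2 in nonIMCD. The part of proximal tubule cells in the difference was not tested.

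Slc6a17, a vesicular carrier of neutral amino acids known from neurons (NCBI Gene 613226), was the carrier with the largest excess in IMCD. It had 5029, 5423 and 3386 on the IMCD arrays and 1435, 1321 and 1301 on the nonIMCD arrays. IMCD replicate 3 was the lowest of its fraction and still above all nonIMCD arrays. The means were 4613 ± 1080 and 1352 ± 72.2 (SD, n = 3), a 3.41-fold excess, and the difference was 1.73 ± 0.21 (SE, adjusted p = 0.00338). Of the 4 dimmer Slc6a17 probe sets 2 were called higher (0.98, adjusted p = 0.0181, and 1.36, adjusted p = 0.0104), and 2 did not pass (1.32, adjusted p = 0.103, and 0.38, adjusted p = 0.551). Of 8 measured neuron and Schwann cell markers 1 was higher in IMCD, Mbp (1.43 ± 0.12, adjusted p = 0.00105). The neuronal vesicle gene Snap25 lay under the tryptophan controls on all 6 arrays, and the summed signal of the list ran from 5206 to 5538 in IMCD and from 2242 to 2297 in nonIMCD. Mbp made up that gap: without it the sums overlapped, at 462.1 to 657.8 in IMCD and 452 to 537.4 in nonIMCD, and 0 of the 7 remaining markers passed in limma (0 at an unadjusted p under 0.05), 5 with a difference above 0 and 2 below. The part of nerve cells in the Slc6a17 difference was not tested.

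Slc6a14, a carrier of neutral and cationic amino acids (NCBI Gene 298340), passed the test at very low signal. It had 76.9, 69.3 and 60.6 on the IMCD arrays and 41.1, 30.7 and 34.5 on the nonIMCD arrays. The fractions did not overlap, but all 6 values were under the highest tryptophan control, so the difference of 0.72 ± 0.15 (SE, adjusted p = 0.0194) gives no size. The call was lost with an intensity trend (adjusted p = 0.196), on leaving out IMCD replicate 1 (0.66, adjusted p = 0.069) or 2 (0.72, 0.0624) and without nonIMCD replicate 2 (0.66, 0.0605) or 3 (0.71, 0.0535). Over all alternatives the adjusted p ran from 0.00625 to 0.196. The imino acid carrier Slc6a20a had -0.28 (adjusted p = 0.328), its paralog Slc6a20b -0.21 (adjusted p = 0.847) and the proline carrier Slc6a7 -0.042 (adjusted p = 0.939). Slc6a20b was above the tryptophan controls on 0 of 3 IMCD arrays and 2 of 3 nonIMCD arrays, so its difference gives no size. Slc6a15, a neuronal carrier of branched-chain amino acids, lay under the controls at 6.61 to 40.4.

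The carriers of transmitters proper and of creatine gave no call in 8 genes (limma, and 0 of 8 at an unadjusted p under 0.05 in the probe set read for each). Among all genes 25.8% were called, and the count in this group was not tested against that share. The noradrenaline carrier Slc6a2 (5.70 to 42.1), the glycine carrier Slc6a5 (5.47 to 60.2) and the GABA carriers Slc6a11 (3.80 to 64.9) and Slc6a13 (4.62 to 18.6) lay under the tryptophan controls on all arrays. The serotonin carrier Slc6a4 had 31, 17 and 25.2 on the IMCD arrays and 128.1, 94.8 and 26 on the nonIMCD arrays. It was above the controls on 2 of the 6 arrays, both nonIMCD, and did not pass (-1.13 ± 0.48, SE, adjusted p = 0.154). Without nonIMCD replicate 3 it was called (-1.66, adjusted p = 0.0128, with adjusted p = 0.0128 to 0.325 over all alternatives). The dopamine carrier Slc6a3 had -0.34 (adjusted p = 0.28) in its brighter probe set, while the other ranged from 7.47 to 21.2.

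The glycine carrier Slc6a9 had 459.5, 466.4 and 69.2 on the IMCD arrays and 636.9, 575.5 and 556.6 on the nonIMCD arrays. IMCD replicate 3 stood apart, and the difference of -1.17 ± 0.70 (SE, adjusted p = 0.293) was -0.34 without it. The dimmer Slc6a9 probe sets gave -1.05 (limma, unadjusted p = 0.0373, adjusted p = 0.116) and -1.32 (unadjusted p = 0.0346, adjusted p = 0.11), and in both the same array was the lowest. In each Slc6a9 probe set the fractions did not overlap, which also held for 48.7% of all genes. The 3 probe sets were read on the same arrays and are not separate evidence. The dimmest was above the tryptophan controls on 1 of 3 IMCD arrays only. The creatine carrier Slc6a8 had 1049, 704.6 and 910.7 on the IMCD arrays and 823.2, 973.6 and 1006 on the nonIMCD arrays. These overlapped fully (-0.085 ± 0.19, adjusted p = 0.793), and the other Slc6a8 probe set gave -0.21 (adjusted p = 0.394).

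**Figure D3:**
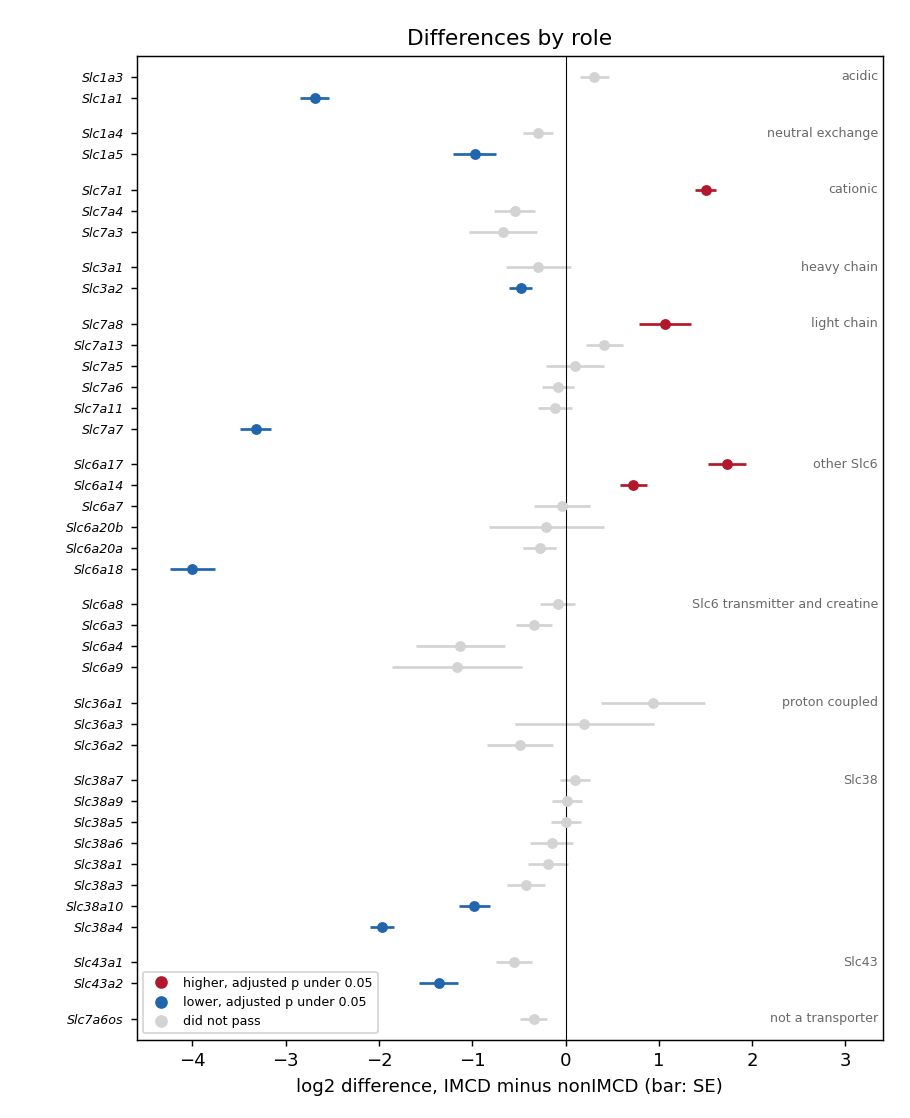
Log2 difference, IMCD minus nonIMCD, for the 39 genes given a difference, grouped by role, with bars of 1 SE (3 arrays per fraction), red where higher, blue where lower and grey where the test was not passed. Differences ran from -4.0 for Slc6a18 to 1.73 for Slc6a17, and the transmitter and proton-coupled groups held no coloured point.

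In the Slc38 family, sodium-coupled carriers of glutamine and other neutral amino acids, 2 of 8 genes were lower in IMCD and none higher. Among all genes 15.7% were lower and 10.0% higher, and 8 genes are too few to set the family apart from these shares. Slc38a4 (NCBI Gene 170573) had 72.5, 66.7 and 70.8 on the IMCD arrays and 332.5, 347.4 and 287.4 on the nonIMCD arrays. All IMCD values lay under the highest tryptophan control, so nonIMCD was at least 3.58-fold brighter, counted against that control, and the fitted difference was -1.97 ± 0.13 (SE, adjusted p = 0.000538). Slc38a10 (NCBI Gene 303740), an intracellular family member, had 4286, 3713 and 3291 on the IMCD arrays and 8575, 6915 and 6819 on the nonIMCD arrays. The fractions were well apart, and the difference was -0.98 ± 0.17 (SE, adjusted p = 0.0113), called under all 13 alternatives. Slc38a1, a widely expressed glutamine importer, had 2693, 3015 and 2044 on the IMCD arrays and 2937, 3455 and 2403 on the nonIMCD arrays, ranges that overlapped (-0.18 ± 0.21, adjusted p = 0.594). Its dimmer probe sets gave 0.38 (adjusted p = 0.226) and 0.13 (adjusted p = 0.598). The glutamine carriers Slc38a3 and Slc38a5 had -0.42 (adjusted p = 0.203) and 0.0092 (adjusted p = 0.975). Slc38a6 had -0.15 (adjusted p = 0.695), and the lysosomal members Slc38a7 and Slc38a9 had 0.10 (adjusted p = 0.698) and 0.013 (adjusted p = 0.964).

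Slc43 carriers are sodium-independent uniporters of large neutral amino acids, and 1 of the 2 was lower. That count is too small to compare with the 15.7% of all genes that were lower. Slc43a2 (NCBI Gene 287532) had 1029, 961.8 and 1242 on the IMCD arrays and 3184, 3125 and 2154 on the nonIMCD arrays. The lowest nonIMCD array was still above all IMCD arrays, and the difference was -1.36 ± 0.21 (SE, adjusted p = 0.00753). A second, dimmer probe set gave -1.72 ± 0.21 (adjusted p = 0.00344). Slc43a1 did not overlap between the fractions either, with means of 346 ± 31.3 and 522 ± 115 (SD, n = 3), but did not pass (-0.55, adjusted p = 0.0963).

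The proton-coupled Slc36 carriers of small amino acids gave 0 calls in 3 genes with limma, and 0 at an unadjusted p under 0.05. With 25.8% of all genes called, 3 genes are too few to read this as a trait of the family. Slc36a1, of lysosomes and intestinal brush border, had 282.7, 276 and 341.6 on the IMCD arrays and 51.5, 197.5 and 292.7 on the nonIMCD arrays. Its spread in nonIMCD, from below the controls to the level of IMCD, left a difference of 0.94 ± 0.56 (SE, adjusted p = 0.296). Slc36a2 had -0.49 (adjusted p = 0.391) and Slc36a3 had 0.20 (adjusted p = 0.879), both with some arrays under the controls.

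Scaling changed the calls of 4 members and the direction of none of these 4. With each array centred on its median, 6 carriers were higher and 6 lower, against 20.2% and 10.2% of all genes, because Slc1a3 and Slc7a13 gained a call and Slc3a2 and Slc1a5 lost theirs. After quantile normalization 4 were higher and 7 lower, against 11.7% and 12.8% of all genes, and Slc1a5 was the member lost. The 8 carriers Slc6a17, Slc7a1, Slc6a18, Slc7a7, Slc1a1, Slc38a4, Slc43a2 and Slc38a10 were called in their direction under all 13 alternatives.

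**Figure D4:**
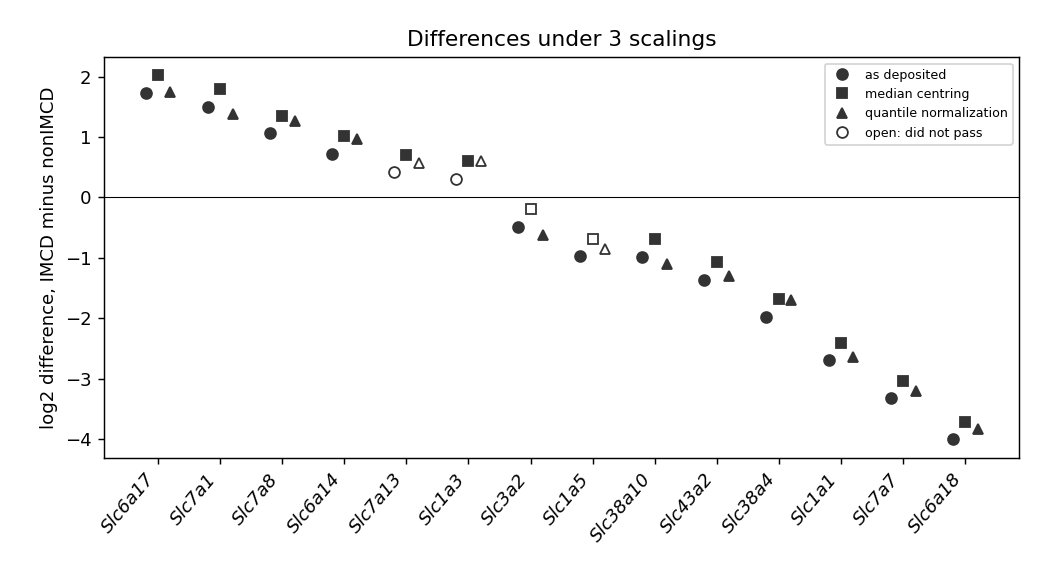
Log2 difference, IMCD minus nonIMCD, of 14 carriers under the deposited scaling (circles), median centring (squares) and quantile normalization (triangles), filled where adjusted p was under 0.05 and open where it was not. Filled and open marks mix for Slc7a13, Slc1a3, Slc3a2 and Slc1a5, while the other 10 are filled under all 3 scalings.

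Genes of neighbouring steps were read from lists that share no gene with the 51. Of 21 measured carriers of other families, 1 was higher, 2 were lower and 18 did not pass (median -0.16, and 2 to 5 called over the alternatives). Slc15a3, a lysosomal peptide and histidine carrier of myeloid cells, had 99.2, 113.5 and 36.3 on the IMCD arrays and 3790, 2655 and 2315 on the nonIMCD arrays. Its IMCD signal was at the edge of the background, with 2 of 3 arrays above the tryptophan controls, so the size of the fitted difference, -4.96 ± 0.40 (SE, adjusted p = 0.000945), is uncertain. The taurine carrier Slc6a6 differed by -2.90 ± 0.19 (adjusted p = 0.000531), and Slc38a2 had 0.19 (adjusted p = 0.455). The mitochondrial aspartate-glutamate carrier Slc25a13 had 0.57 (adjusted p = 0.0486), a call lost on leaving out any single array (0.48 to 0.65, adjusted p = 0.066 to 0.134).

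Of 12 partners and regulators of amino acid carriers 4 were higher, 2 lower and 6 did not pass (median 0.07, 4 to 7 called over the alternatives). Collectrin (Cltrn), the partner that brings apical Slc6 carriers to the membrane, had 1562, 1221 and 1377 on the IMCD arrays and 426.3, 296.7 and 538.4 on the nonIMCD arrays. It was higher by 1.72 ± 0.24 (SE, adjusted p = 0.00573), opposite to Slc6a18. The brush border aminopeptidase Anpep was lower, with a difference of -2.12 ± 0.21 (adjusted p = 0.00189). The ubiquitin ligase Nedd4l differed by 0.82 ± 0.14 (adjusted p = 0.0116).

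Arginine, glutamate and glutathione enzymes gave 2 higher and 3 lower genes of 19 (median -0.07, 5 to 8 called over the alternatives). Arg2, the mitochondrial arginase, had 13380, 13000.0 and 13540 on the IMCD arrays and 2724, 2706 and 3561 on the nonIMCD arrays, a difference of 2.16 ± 0.15 (SE, adjusted p = 0.000683) in the same direction as the arginine carrier Slc7a1. Ggt1, which splits extracellular glutathione, differed by -2.78 ± 0.16 (adjusted p = 0.000398), and Gatm, which uses arginine for creatine synthesis, by -2.54 ± 0.16 (adjusted p = 0.000493). Of 11 measured genes that break down branched-chain amino acids 3 were higher and 0 lower (median 0.27, 2 to 7 called over the alternatives). These were the transaminases Bcat1 (1.13 ± 0.14, adjusted p = 0.00386) and Bcat2 (0.63 ± 0.11, adjusted p = 0.0124) and the dehydrogenase subunit Bckdhb (0.94 ± 0.20, adjusted p = 0.0236). Bckdhb failed on leaving out IMCD replicate 1 (0.98, adjusted p = 0.0638) or 3 (0.79, 0.0588) or nonIMCD replicate 1 (0.83, 0.075) or 2 (0.92, 0.0724).

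The amino acid response and serine synthesis list, which reads starvation and stress through Atf4, gave 2 higher, 1 lower and 15 genes that did not pass of 18 (median 0.15, 1 to 9 called over the alternatives). Phgdh, the first enzyme of serine synthesis, differed by -1.22 ± 0.18 (SE, adjusted p = 0.00729). Asparagine synthetase (Asns) differed by 0.72 ± 0.16 (adjusted p = 0.0259) and Psat1, the next enzyme of serine synthesis, by 0.60 ± 0.14 (adjusted p = 0.0272). Asns lost its call without 5 of the 6 arrays in turn, all but IMCD replicate 2, and Psat1 without 5, all but nonIMCD replicate 3. Atf4 itself had 0.29 (adjusted p = 0.141).

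Of 20 genes that pass amino acid signals to the growth kinase complex mTORC1, 3 were higher, 3 lower and 14 did not pass (median -0.15, 2 to 9 called over the alternatives). The lysosomal GTPase Rragd had 2191, 1619 and 2138 on the IMCD arrays and 384.7, 396 and 524.8 on the nonIMCD arrays, and differed by 2.15 ± 0.19 (SE, adjusted p = 0.00141). The arginine sensor Castor1 differed by -1.0 ± 0.17 (adjusted p = 0.012). Sesn1 differed by 0.72 ± 0.14 (adjusted p = 0.0154), a call lost without IMCD replicate 2 (0.72, adjusted p = 0.0526) or 3 (0.66, 0.0511) or nonIMCD replicate 1 (0.66, 0.0567). For none of these lists was enrichment tested, and the counts stand beside the 25.8% of all genes called.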

How the data were processed

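Values were the intensities deposited in the series matrix, 1 per probe set and array on a linear scale. The authors had scaled each array to a mean of 1000.3 to 1000.4 with 2% trimmed at each end, as tested on the file; which software did so is not given in the sources used. Scaling of this kind fixes average brightness, so a difference is relative to it. All 6 columns matched a sample by accession. Of 31099 probe sets, 57 controls were left out and 31042 tested. Gene symbols came from the platform annotation (2016); 20826 probe sets had 1 symbol, 436 several and 9780 none, and all 51 genes were found by identifier in RefSeq (GRCr8).

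The fractions were compared on log2(intensity + 16) by limma (version 3.58.1, R 4.3.3; lmFit and eBayes, two-sided, 6 arrays, no covariate), with Benjamini-Hochberg adjustment over all 31042 probe sets and a threshold of 0.05. The pseudocount understates differences between dim signals. Array number limits the precision. Genes with fewer than 2 arrays above 78.4, the highest tryptophan control, in both fractions and no call got no difference. Per-array values were given by a written rule for genes at least 2-fold different and called, the 5 brightest, both heavy chains and genes whose call a scaling changed; others, and the array values of related genes, were chosen after their values were seen. The fit was tested on simulated data. The alternatives were pseudocounts of 1 and 64, median centring, quantile normalization, a filter on intensities under 100, an intensity trend, the replicate number as a block, each array left out, and the second probe set of a gene. The members and lists were chosen with earlier results of these data known.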

Additional observations from a re-analysis of the deposited data

How the results depend on the processing

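Over the 13 settings tried, 8 of the 12 carriers past the threshold kept their call, and no called carrier changed sign. Slc7a8, Slc6a14, Slc1a5 and Slc3a2 lost theirs under some. With median centring IMCD was higher in 5389 and lower in 2652 probe sets (main values 2663 and 4163). That scaling moved the share of higher calls from 39% to 67%, and quantile normalization to 52.1%. Leaving out 1 array at a time gave 1537 to 2248 higher and 2647 to 3221 lower probe sets, and 2 to 3 higher carriers. With the second probe set of each gene that has one, 5 carriers were higher and 8 lower. The replicate number as a block left 1831 higher and 2993 lower probe sets and 3 higher and 6 lower carriers, without Slc7a8 (1.07, adjusted p = 0.0588), Slc1a5 (-0.97, 0.0531) and Slc3a2 (-0.48, 0.0733). Same-numbered arrays shared deviations at r = 0.035 to 0.061, too low to establish pairs, although each array correlated best with its own number. A pseudocount of 1 cost Slc7a8 its call (1.09, adjusted p = 0.057).

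Differences that passed in neither setting changed sign 35 times. Under median centring Slc38a1, Slc38a6, Slc6a20a, Slc6a20b, Slc6a7, Slc6a8, Slc7a11 and Slc7a6 came to 0.10, 0.14, 0.011, 0.082, 0.25, 0.20, 0.18 and 0.21. After quantile normalization the last 7 came to 0.14, 0.014, 0.017, 0.23, 0.071, 0.19 and 0.0063. Without 1 array the range was -0.51 to 0.72 for Slc36a3, -0.11 to 0.079 for Slc38a5, -0.37 to 0.013 for Slc38a6, -0.03 to 0.20 for Slc38a7, -0.11 to 0.14 for Slc38a9, -0.55 to 0.065 for Slc3a1, -0.77 to 0.26 for Slc6a20b, -0.34 to 0.21 for Slc6a7, -0.21 to 0.0698 for Slc6a8, -0.25 to 0.0027 for Slc7a11, -0.20 to 0.39 for Slc7a5 and -0.17 to 0.032 for Slc7a6. The cause of these changes was not tested. Signal limits what can be read of 12 genes too close to the negative controls for a difference.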
